A study of Mus musculus with 6 samples.

Results

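The Bcl2 family decides whether the outer membrane of the mitochondrion stays intact. Anti-apoptotic members such as Bcl2, Bcl-XL and Mcl1 hold the pore-forming effectors Bax and Bak in check, and the BH3-only members, among them Bim, Bid, Puma, Noxa and Bik, bind the guardians or the effectors and tip the balance towards release of cytochrome c and caspase activation. In mouse embryonic stem (ES) cells, Mcl1 and Bcl-XL are known survival factors.

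Here the transcripts of 10 family genes, Bcl2, Bcl2l1 (Bcl-XL), Mcl1, Bax, Bak1, Bcl2l11 (Bim), Bid, Bbc3 (Puma), Pmaip1 (Noxa) and Bik, were followed on Affymetrix mouse arrays as ES cells began to differentiate. The members were all probe sets whose single gene symbol in the platform annotation was one of these names. This gave 30 of the 45037 probe sets tested and 9 of the 10 genes. Bax was not analysed here, since no probe set carries it as its single symbol in the annotation used.

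The cells were E14TG2a, 1 mouse ES cell line, grown on gelatin. The undifferentiated group of 3 samples was kept in medium with leukaemia inhibitory factor (LIF, 1000 units/ml) and sorted by FACS as negative for surface 5T4. The differentiating group of 3 samples had been without LIF for 3 days and was sorted as positive for 5T4, so absence of LIF and presence of 5T4 go together and their parts cannot be told apart. Both sorts took cells gated as live by light scatter, so cells already dead were left out of both groups. The labels name both fetal calf serum and serum replacement as supplements and do not say which sample had which. They number the replicates without saying that they were separate cultures, and the p-values measure only the spread between these samples, some of which may be technical. In bulk RNA of this kind, fewer cells of a type and less RNA per cell cannot be told apart.

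Values are RMA values, a log2 measure of probe set signal after background correction and normalization, so differences are on the log2 scale. Differences are differentiating minus undifferentiated, with the standard error (SE), the 95% interval and the adjusted p of limma over all 45037 probe sets. A probe set passed at an adjusted p under 0.1, the false discovery threshold of the methods, and was called if its difference was also at least 1. Where a gene has several probe sets, the one with the highest mean signal over the 6 arrays gives its main value. Probe sets of 1 gene read the same RNA and are not replicates of each other. Signals of different probe sets are not compared as levels, since each has its own probes.

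Of 10 markers of naive ES cells, 4 passed as lower in differentiating cells and none as higher. All 10 differences were negative, with a median of -3.25, and 9 had an unadjusted p under 0.05 in limma. The mean signal of the list lay between 6.39 and 8.72 on the differentiating arrays against 9.83 to 10.56 on the undifferentiated arrays. The 8 markers of pluripotent cells had a median signal at percentile 97.5 of all probe sets. Of these 8, 2 passed as lower and none as higher, with 6 differences negative and 2 positive. The mean of the list was 10.89 to 10.97 on differentiating and 11.18 to 11.40 on undifferentiated arrays. Of the 7 markers of the primed epiblast, 2 passed as higher and none as lower, with 6 differences positive and 1 negative. Undifferentiated replicate 2 had the lowest naive marker signal of its group (9.83). Tpbg, the gene of the 5T4 protein used for sorting, read 6.71, 7.52 and 7.97 on the differentiating arrays and 5.94, 6.76 and 5.68 on the undifferentiated arrays of its main probe set. The same undifferentiated replicate 2 lay above the lowest differentiating array, and the difference of 1.27 did not pass (adjusted p = 0.22). At 2 dimmer Tpbg probe sets, 1423311_s_at and 1423312_at, the groups were apart, with differences of 1.39 (adjusted p = 0.118) and 0.38 (adjusted p = 0.237). On the first of these undifferentiated replicate 2 was again the highest of its group (6.54).

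Of the 30 family probe sets, 3 were higher in differentiating cells, all of them of Bcl2, none was lower and 27 did not pass. Over all probe sets 1.6% passed, 0.573% as higher and 1.03% as lower. At an unadjusted p under 0.05 in limma, 7 family probe sets were higher and 2 lower, against 13.7% of all probe sets in either direction. The groups were apart, with no overlap of their arrays, in 12 of the 30, 8 higher and 4 lower, where 20.3% of all probe sets were apart in this way (10% higher and 10.3% lower). Without the probe sets of Bcl2 and Bcl2l11 the count was 5 of 20. The count of 3 changed with every array left out. It was 0 without differentiating replicate 2 or 3 or undifferentiated replicate 3, 1 without undifferentiated replicate 1, 4 without differentiating replicate 1 and 6, of Bcl2 and Bcl2l11, without undifferentiated replicate 2. Over all probe sets 0, 3, 1, 716, 993 and 1491 passed in these fits, in the same order, beside 720 with all arrays. The median difference of the 30 was 0.15 and their median absolute difference 0.26, compared with 0.03 and 0.16 over all probe sets. Of the 9 measured genes, 1 passed at its main probe set.

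**Figure D1:**
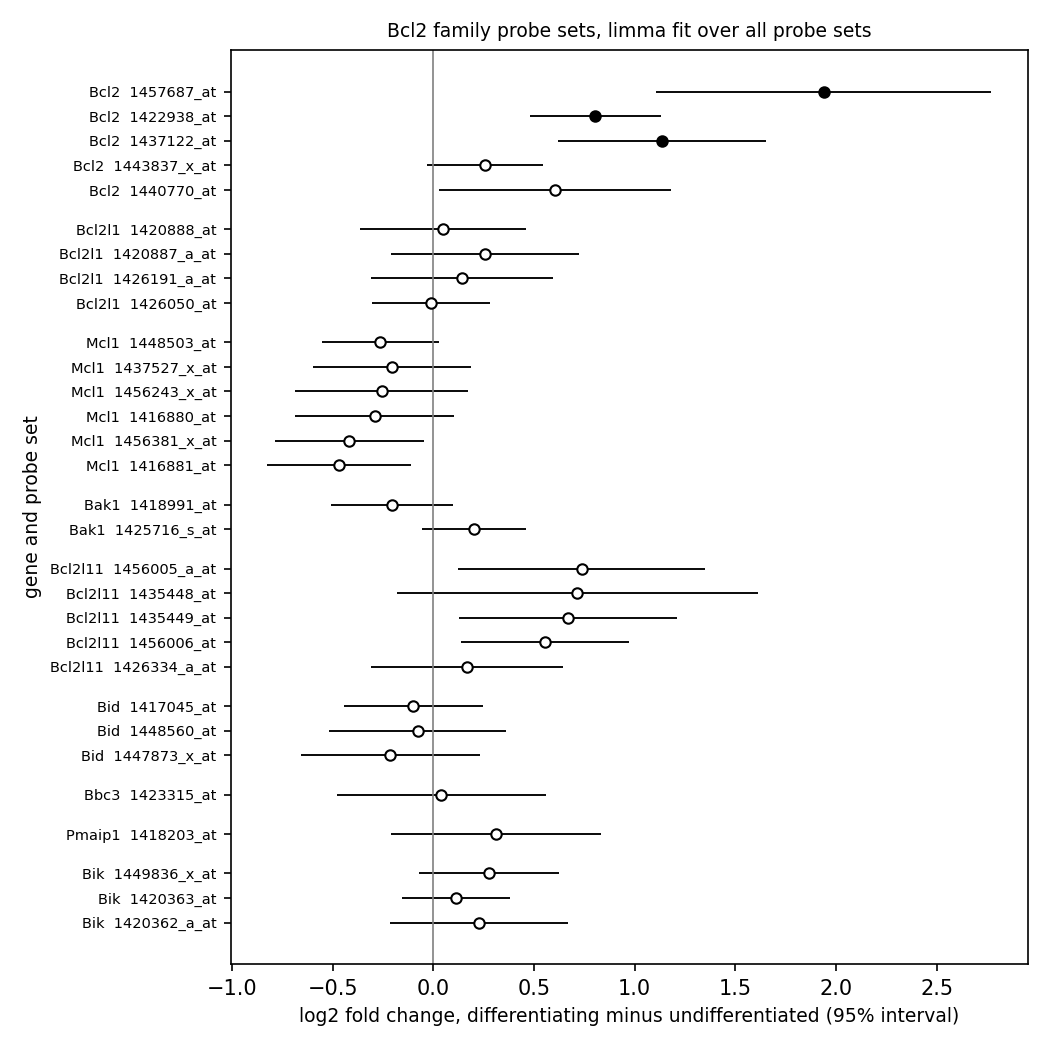
Difference in RMA value (log2, differentiating minus undifferentiated, horizontal axis) of each of the 30 family probe sets, with its 95% interval from limma. Filled points passed at an adjusted p under 0.1; only 3, all of Bcl2, are filled, while the 6 Mcl1 points lie left of 0 and the 5 Bcl2l11 points right of it.

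The stretches before the RefSeq transcription starts of Bcl2 and Bcl2l11 are shown because these are the genes of the family whose probe sets had the largest differences. Each is the 250 bases upstream of a start, 5′ to 3′ on the gene's own strand, from RefSeq (GRCm38.p6), and for Bcl2l11 it is the first of its listed starts. The Bcl2 stretch lies at chr1:106714291-106714540 on the minus strand, and that of Bcl2l11 at chr2:128125788-128126037 on the plus strand. Capitals mark matches, on either strand, to any of 7 short motifs, GGGCGG (the GC box of Sp1), CCACCC (bound by Klf factors), GTAAACA (FoxO factors), TTCNNNGAA (STAT factors), CACGTG (the E-box), TGACGTCA (the cAMP response element) and TATAAA (the TATA box).
Bcl2: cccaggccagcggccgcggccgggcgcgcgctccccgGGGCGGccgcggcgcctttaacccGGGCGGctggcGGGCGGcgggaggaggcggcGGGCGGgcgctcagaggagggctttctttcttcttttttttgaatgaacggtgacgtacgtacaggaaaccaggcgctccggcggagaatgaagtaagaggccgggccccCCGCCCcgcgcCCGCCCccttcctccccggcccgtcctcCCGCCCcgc
Bcl2l11: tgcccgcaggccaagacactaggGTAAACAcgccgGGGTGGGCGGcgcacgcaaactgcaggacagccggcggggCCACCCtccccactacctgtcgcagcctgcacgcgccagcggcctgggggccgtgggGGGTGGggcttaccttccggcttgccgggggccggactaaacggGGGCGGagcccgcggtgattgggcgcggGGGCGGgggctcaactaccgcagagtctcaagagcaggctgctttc

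All 7 matches in the Bcl2 stretch were GC boxes. The Bcl2l11 stretch held 3 GC boxes, 3 CCACCC matches and 1 GTAAACA match, and 1 GC box overlapped a CCACCC match. Both were rich in G and C (74.8% for Bcl2 and 72% for Bcl2l11, median of all 32851 stretches 52.4%). The GC box was found in 32.7% of all stretches, CCACCC in 28.1% and GTAAACA in 3.17%. In all, 13 listed starts belong to 8 of the 10 family genes. The STAT motif (7.02% of all stretches), the cAMP response element (1.55%) and the TATA box (12.4%) had no match in any of the 13, and the E-box (6.02%) was found at starts of Bax and Bbc3. These are matches of letters in a short window and do not show binding.

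Bcl2, the founding anti-apoptotic member, was the only measured gene of the family with a probe set that passed. At its main probe set, 1457687_at, the RMA values were 7.47, 8.19 and 8.34 on the 3 differentiating arrays and 5.50, 6.72 and 5.97 on the 3 undifferentiated arrays. Every differentiating array lay above every undifferentiated array, and undifferentiated replicate 2 came closest to the other group. The means were 8.00 ± 0.46 (SD, n = 3) and 6.06 ± 0.61 (SD, n = 3). By limma the difference was 1.94, or 3.83-fold, with an SE of 0.35, an interval of 1.11 to 2.77 and an adjusted p of 0.0887.

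The increase was seen at other probe sets of Bcl2. At 1422938_at the differentiating arrays read 6.76, 6.41 and 6.62 and the undifferentiated arrays 5.87, 5.86 and 5.65. This pair of groups was tighter, and its smaller difference of 0.81 (1.75-fold, SE 0.14, 95% interval 0.48 to 1.13) had the smallest adjusted p of the family (0.0786). At 1437122_at the values were 5.86, 6.12 and 6.46 against 4.67, 5.32 and 5.05, a difference of 1.14 (2.20-fold, SE 0.22, adjusted p = 0.0949). Both sets of arrays were again apart. The 2 probe sets that passed with a difference of at least 1, 1457687_at and 1437122_at, are the only called probe sets of the family, where 0.329% of all probe sets were called higher. Of these, 1437122_at no longer passed after a second quantile normalization (adjusted p = 0.113), after median centring (adjusted p = 0.109) or in 4 of the 6 fits with 1 array left out (adjusted p from 0.114 to 0.366).

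The remaining Bcl2 probe sets, 1443837_x_at and 1440770_at, had signals at percentiles 14.3 and 9.46 of all probe sets. The table has no detection calls, so it is not known whether values this low lie above background, and a difference there can understate a change. Their differences were 0.26 (adjusted p = 0.427) and 0.60 (adjusted p = 0.342). Averaged over all 5 probe sets, Bcl2 was higher by 0.95 (adjusted p = 0.0671). This adjusted p is from a separate limma fit on the means of each gene, adjusted over genes and not over all probe sets.

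The Bcl2 call rested on few arrays. At the main probe set the difference stayed between 1.66 and 2.27 when any 1 array was left out, while the adjusted p passed only without differentiating replicate 1 (0.0794) or undifferentiated replicate 2 (0.0361). It was 0.362 without differentiating replicate 2, 0.312 without differentiating replicate 3, 0.103 without undifferentiated replicate 1 and 0.327 without undifferentiated replicate 3, and the 3 of these fits that lacked differentiating replicate 2 or 3 or undifferentiated replicate 3 had 0, 3 and 1 probe sets passing over the whole table.

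Marker genes of other cells were read beside Bcl2. Of 8 blood cell markers, 6 lay below the median signal, with percentiles from 10.4 (Ptprc, the pan-leukocyte gene) to 75.1. Their mean signal was 5.02 to 5.26 on differentiating and 5.30 to 5.68 on undifferentiated arrays. This mean is sensitive to Laptm5, which passed and was lower by 3.12 on the log2 scale. Of the 8 differences 4 were positive and 4 negative, with a median of -0.02. None passed as higher, and 1 was higher at an unadjusted p under 0.05 in limma. The mean signal of 8 endoderm markers was 5.64 to 5.66 on differentiating and 5.22 to 5.49 on undifferentiated arrays. None of the 8 passed at its main probe set, and 5 lay below the median signal, with percentiles of the list from 33.2 to 70.9. The endoderm factors Gata4, Sox17 and Foxa2 had signals at percentiles 38.7, 45.6 and 33.2. Of the 8 differences 7 were positive and 1 negative, with a median of 0.098. Dab2, of the same list, had a difference of 1.96 (adjusted p = 0.141) and passed at 2 dimmer probe sets. Of 9 fibroblast markers none passed, 3 were higher at an unadjusted p under 0.05 in limma, and their mean signals overlapped (5.63 to 6.14 against 5.33 to 5.73). The part of the endoderm and primed epiblast signals in the Bcl2 difference was not tested.

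**Figure D2:**
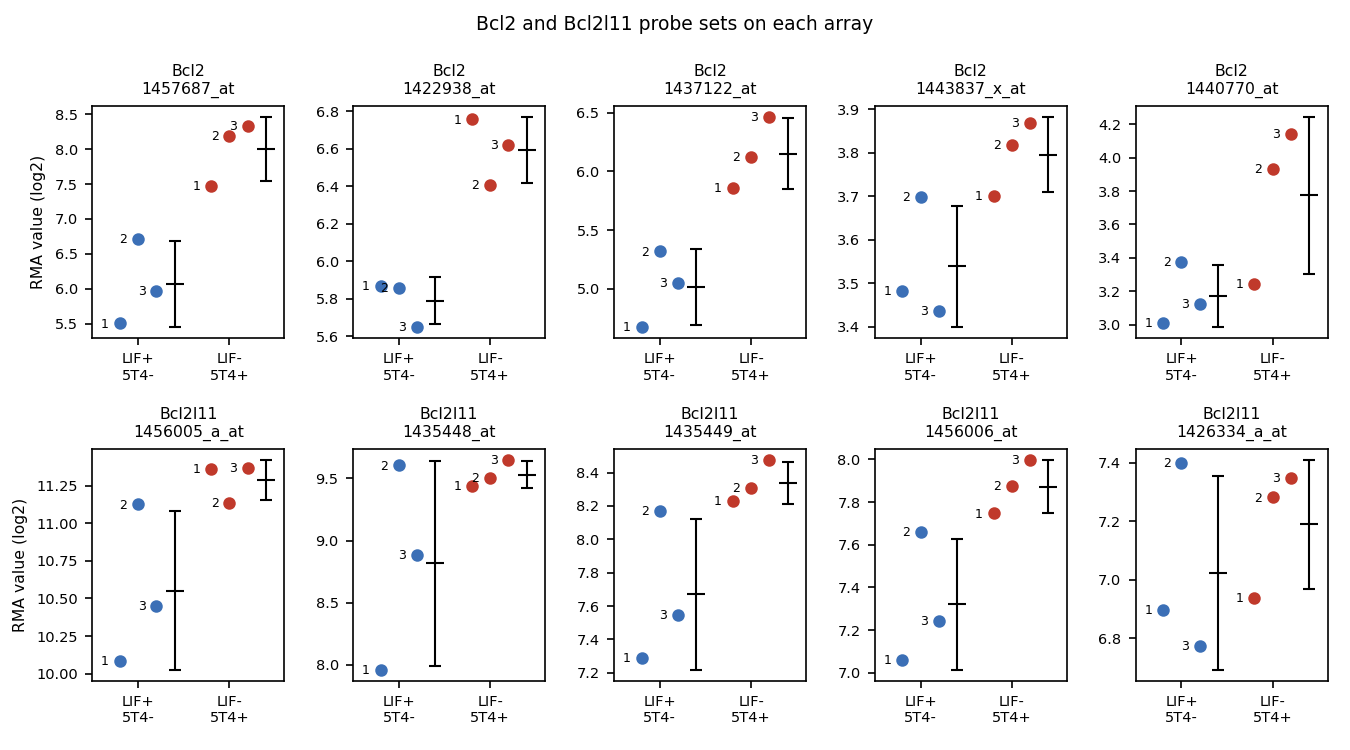
RMA values (log2, vertical axis, own scale in each panel) of the 5 Bcl2 and 5 Bcl2l11 probe sets on each array, undifferentiated (LIF+, 5T4-) in blue and differentiating (LIF-, 5T4+) in red. Small numbers are replicates, and bars give the mean and SD of 3 arrays; undifferentiated replicate 2 is the highest blue point in every Bcl2l11 panel and reads 11.13 at 1456005_a_at, just below the lowest red point at 11.14.

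Bcl2l11 encodes Bim, a BH3-only protein that binds all the anti-apoptotic members. Its main probe set, 1456005_a_at, read 11.36, 11.14 and 11.37 on the differentiating arrays and 10.08, 11.13 and 10.45 on the undifferentiated arrays. The differentiating arrays were close together (SD 0.13), the undifferentiated arrays were spread (SD 0.53), and replicate 2 of the latter almost reached the other group. The difference of 0.74 (SE 0.26, 95% interval 0.12 to 1.35) did not pass (adjusted p = 0.278).

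The other Bcl2l11 probe sets had the same sign. The values of 1435448_at were 9.44, 9.50 and 9.65 against 7.96, 9.61 and 8.88, and those of 1435449_at were 8.23, 8.31 and 8.48 against 7.29, 8.17 and 7.55. The differences at all 5 lay between 0.17 and 0.74 with adjusted p from 0.239 to 0.775. At 3 of the 5 the groups did not overlap, where 10% of all probe sets were apart as higher. The 5 read the same RNA and are not independent. Undifferentiated replicate 2 was the highest array of its group at all 5. Without that array, 1456005_a_at was higher by 1.02 (adjusted p = 0.0581), 1435449_at by 0.92 (adjusted p = 0.0596) and 1456006_at by 0.72 (adjusted p = 0.092), so that Bcl2l11 passed in that fit, in which 1491 probe sets passed instead of 720. It passed in no other fit with 1 array left out. Under array weights, where 7174 probe sets passed in all, 1435449_at (0.58, adjusted p = 0.079) and 1456006_at (0.51, adjusted p = 0.0513) passed. The main probe set did not (adjusted p = 0.14).

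Jun, singled out after its values were seen and known to activate Bcl2l11 in neurons, had a similar spread among the undifferentiated arrays. It read 8.56 on undifferentiated replicate 2 against 6.33 and 6.53 on the other undifferentiated arrays, and 8.38, 8.92 and 9.25 on the differentiating arrays. Its difference of 1.71 did not pass (adjusted p = 0.265). Jun is also among 13 genes induced by sorting and dissociation, none of which passed and whose mean signal overlapped between groups (8.42 to 8.69 against 8.19 to 8.99). Its part in the Bcl2l11 values was not tested. Over the family as a whole, undifferentiated replicate 2 was the array of its group nearest to the differentiating mean at 21 of 30 probe sets, against 6 for replicate 1 and 3 for replicate 3. The 21 include 4 probe sets of Bcl2 and 5 of Bcl2l11, which are not independent. The same count was not made over all probe sets, so it does not show a trait of the family. 

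Mcl1, the short-lived anti-apoptotic member on which ES cells are known to lean, had negative differences at all 6 of its probe sets, from -0.47 to -0.21, and none passed (adjusted p from 0.244 to 0.65). At the main probe set, 1448503_at, the values were 11.75, 12.02 and 11.83 on the differentiating arrays and 12.04, 12.13 and 12.22 on the undifferentiated arrays. The arrays were just apart, and the difference was -0.26 (SE 0.12, 95% interval -0.55 to 0.03, adjusted p = 0.415). The largest difference was at 1416881_at, with 10.71, 10.88 and 10.41 against 11.05, 11.11 and 11.24, or -0.47 (95% interval -0.83 to -0.11, adjusted p = 0.244). At 3 of the 6 the groups did not overlap, where 10.3% of all probe sets were apart as lower. The 6 read the same RNA and are not independent. All 6 kept their sign whichever array was left out, and all 6 signals lay at percentile 95.9 or above. Under array weights, where 7174 probe sets passed in all, 1456381_x_at passed as lower (-0.45, adjusted p = 0.0484) and the other Mcl1 probe sets did not pass.

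Bcl2l1 encodes Bcl-XL. Its main probe set, 1420888_at, read 8.81, 8.56 and 8.79 on the differentiating arrays and 8.67, 8.96 and 8.37 on the undifferentiated arrays. The groups overlapped, and the difference of 0.05 (adjusted p = 0.934) had -0.36 and 0.46 as the ends of its 95% interval. Its sign turned without undifferentiated replicate 3 (-0.10) and with array weights (-0.02). The other 3 Bcl2l1 probe sets differed by -0.01 to 0.26, with overlapping arrays and adjusted p of at least 0.63. An increase of 1 on the log2 scale, as seen at Bcl2, lies outside the interval of each of the 4 probe sets. At 1426050_at this is only a weak limit, since its signal lay at percentile 14.3, where a difference can understate a change.

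**Figure D3:**
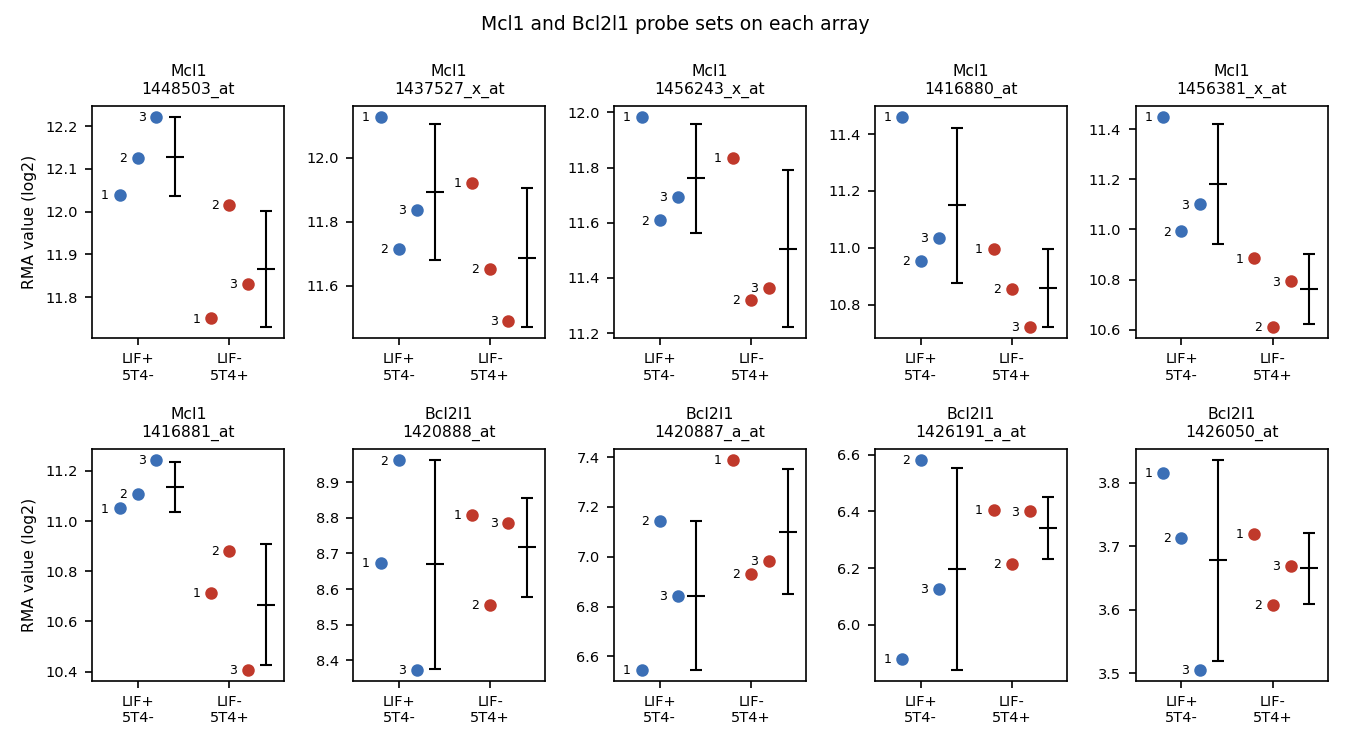
RMA values (log2, vertical axis, own scale in each panel) of the 6 Mcl1 and 4 Bcl2l1 probe sets on each array, undifferentiated in blue and differentiating in red, with replicate numbers and bars for the mean and SD of 3 arrays. The red Mcl1 means lie below the blue means in all 6 panels by 0.21 to 0.47, and the Bcl2l1 arrays overlap in all 4.

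Bak1 encodes Bak, the measured effector. Its probe sets disagreed. At 1418991_at the differentiating arrays (7.13, 7.13 and 7.11) lay below the undifferentiated arrays (7.53, 7.17 and 7.29), a difference of -0.20 (adjusted p = 0.549). At 1425716_s_at, a probe set type that can match more than a single transcript, they lay above (5.55, 5.51 and 5.38 against 5.24, 5.33 and 5.26), a difference of 0.20 (adjusted p = 0.485). The groups were apart at both, in opposite directions, and no direction is given for Bak1. The intervals were -0.51 to 0.10 and -0.06 to 0.46.

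None of the other BH3-only genes passed. Bid, whose protein links death receptors to mitochondria once caspase-8 has cut it, read 8.61, 9.00 and 8.80 on the differentiating and 8.77, 8.90 and 9.05 on the undifferentiated arrays of 1417045_at. These groups overlapped, with a difference of -0.10 (95% interval -0.45 to 0.24, adjusted p = 0.815), and the other Bid probe sets differed by -0.08 and -0.21. Bik read 6.47, 6.60 and 6.51 against 6.51, 6.05 and 6.19 at 1449836_x_at. Its 3 probe sets had differences of 0.11 to 0.28 with overlapping arrays and adjusted p from 0.477 to 0.719. With array weights, under which 7174 probe sets passed in all, 1449836_x_at passed (0.40, adjusted p = 0.0484).

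Bbc3 and Pmaip1 are the BH3-only genes best known as targets of p53. Bbc3 read 8.29, 8.42 and 8.35 on the differentiating arrays and 8.82, 8.11 and 8.01 on the undifferentiated arrays, of which replicate 1 stood above all others. Its difference of 0.04 (95% interval -0.48 to 0.56, adjusted p = 0.958) had no stable sign. It was -0.06 and -0.11 without undifferentiated replicates 2 and 3, and 0.29 without undifferentiated replicate 1. Pmaip1 read 9.22, 9.78 and 9.94 against 9.44, 9.51 and 9.06, a difference of 0.31 (95% interval -0.21 to 0.83, adjusted p = 0.602). Differentiating replicate 1 lay among the undifferentiated arrays. The difference was 0.53 without that array and 0.16 without differentiating replicate 3, and with array weights Pmaip1 passed (0.51, adjusted p = 0.0799).

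**Figure D4:**
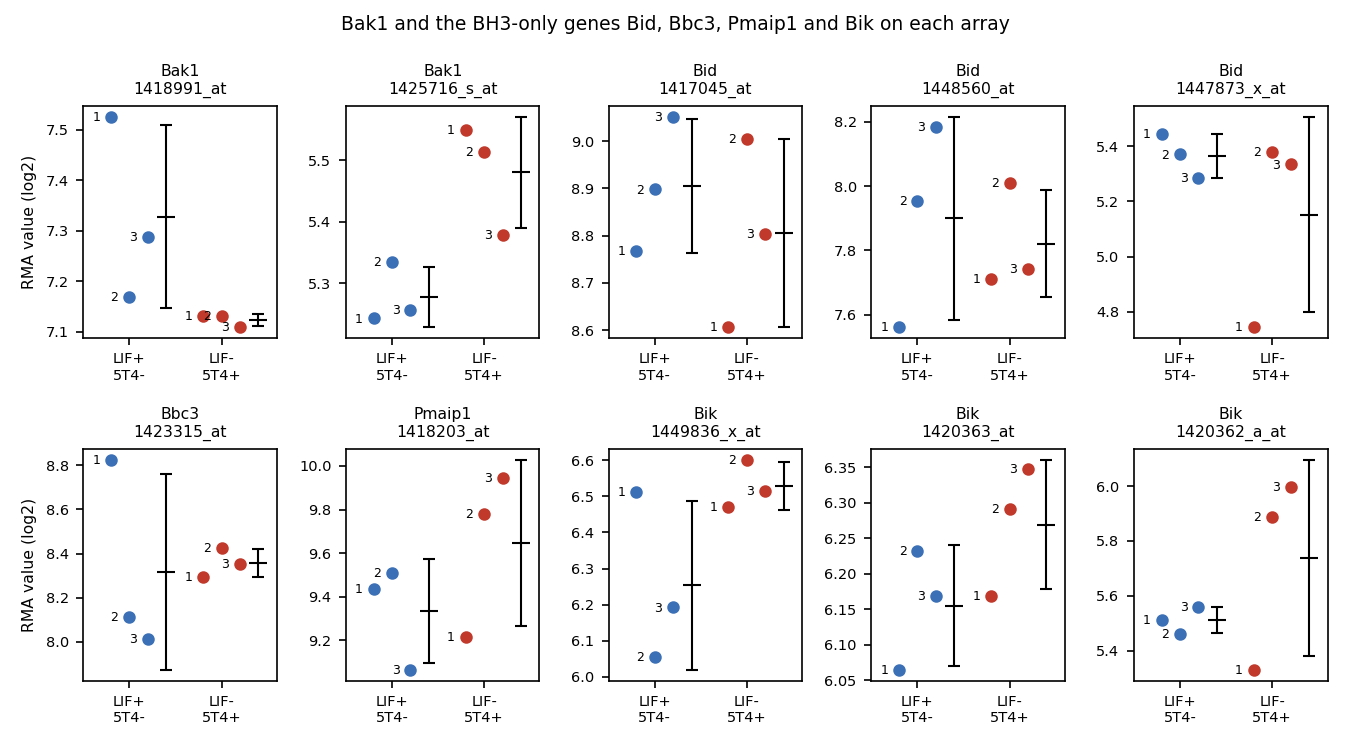
RMA values (log2, vertical axis, own scale in each panel) of the probe sets of Bak1, Bid, Bbc3, Pmaip1 and Bik on each array, undifferentiated in blue and differentiating in red, with replicate numbers and bars for the mean and SD of 3 arrays. Only the 2 Bak1 panels have groups that are apart, downwards at 1418991_at and upwards at 1425716_s_at.

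The intervals show how much change these arrays could have missed. From the difference to either end of its 95% interval was a distance of 0.26 to 0.90, with a median of 0.42 over the 30 probe sets. For 23 of the 30 the whole interval lay between -1 and 1. These include the dim 1443837_x_at of Bcl2 and 1426050_at of Bcl2l1, where the limit is weak. The exceptions were the 3 Bcl2 probe sets that passed, the dim 1440770_at of Bcl2, and 1456005_a_at, 1435448_at and 1435449_at of Bcl2l11. A smaller change of the other genes can have gone unseen, and with 3 arrays a side the smallest two-sided p that an exact permutation test of a single value allows is 0.1.

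The genes whose signal followed Bcl2 most closely are given as a description. Over the 6 arrays, Dnajb5, Camk2g and Sctr had the highest Pearson correlation with 1422938_at among the main probe sets of 18193 genes (0.99, 0.98 and 0.98). In total 306 genes had a correlation above 0.9, and all points share the same 6 RNA samples and the same split in 2 groups.

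Other genes of apoptosis were read at their main probe sets, from 7 lists that held 142 genes, of which 129 were measured. Of these 129, 1 was higher, 3 were lower and 125 did not pass, where 0.797% of the main probe sets of all genes passed as higher and 1.45% as lower. The median difference of the 129 was -0.06, beside 0.02 over all genes. At an unadjusted p under 0.05 in limma, 6 of the 129 were higher and 20 lower, against 13.7% of all probe sets in either direction. The groups were apart in 34, 8 higher and 26 lower, where 10% of all probe sets were apart as higher and 10.3% as lower. These 2 comparisons are with all probe sets and not with main probe sets only. None of 16 further Bcl2 relatives passed in limma (none at an unadjusted p under 0.05 either), and their differences ran from -0.51 to 0.36. The largest were those of the hypoxia-inducible Bnip3 (-0.51, adjusted p = 0.739) and of Bnipl (-0.42, adjusted p = 0.452). Bad, whose protein is inactivated by survival kinases, was singled out after its values were seen. It had differences of -0.25 (adjusted p = 0.63) and, at a dimmer probe set, -0.73 (adjusted p = 0.118).

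Downstream of mitochondria, none of 18 genes of the apoptosome and caspases and none of 9 caspase inhibitors passed. Cidea (-0.92, adjusted p = 0.279) and Casp8, the initiator caspase of death receptors (0.85, adjusted p = 0.274), had the largest differences of the former. Xiap (0.32, adjusted p = 0.656) and Birc7 (0.22, adjusted p = 0.59) had the largest of the latter. None of 17 death receptor genes passed either, with the largest differences at Tradd, an adaptor of the TNF receptor (-0.85, adjusted p = 0.443), and the necroptosis kinase gene Ripk3 (-0.79, adjusted p = 0.285). At an unadjusted p under 0.05 in limma, 1 of the apoptosome list was higher and 3 were lower, no caspase inhibitor was past it in either direction, and 1 of the death receptor list was higher and 3 were lower.

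Of 22 measured genes of p53 and its targets, 2 passed, both lower, and 20 did not. Tigar, which encodes a p53-induced regulator of glycolysis, read 7.33, 7.66 and 7.40 on the differentiating and 8.28, 8.42 and 8.67 on the undifferentiated arrays, a difference of -0.99 (SE 0.15, adjusted p = 0.0661). Mdm4, an inhibitor of p53, read 7.85, 7.97 and 7.91 against 8.56, 8.39 and 8.47, a difference of -0.56 (SE 0.11, adjusted p = 0.095). Both were apart between groups. Of 20 transcription factors known to act on the family, only Klf4 passed, with -4.20 (adjusted p = 0.0669), and Klf4 is also a naive ES cell marker. Of the 20 differences 6 were positive and 14 negative, with a median of -0.38. At an unadjusted p under 0.05 in limma, 1 was higher and 6 were lower, against 13.7% of all probe sets in either direction.

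Among 27 partners and modifiers of the family, Pim2 was higher and none was lower. Pim2 is a survival kinase known to phosphorylate Bad. It read 11.47, 11.50 and 11.49 on the differentiating arrays and 8.89, 9.90 and 9.90 on the undifferentiated arrays. The groups were far apart, with a difference of 1.92 (3.79-fold, SE 0.28, 95% interval 1.27 to 2.57, adjusted p = 0.0571). At dimmer probe sets the kinase genes Akt2 and Pim1 of the same list were lower (-0.71, adjusted p = 0.0806, and -0.55, adjusted p = 0.0987).

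**Figure D5:**
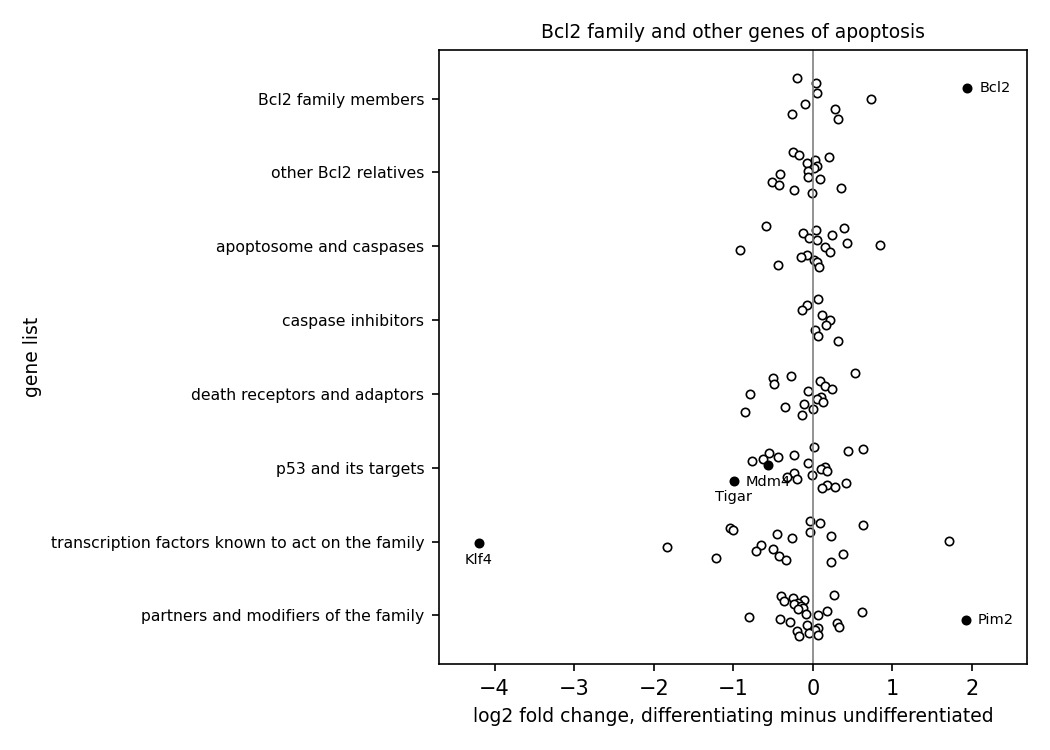
Difference in RMA value (log2, differentiating minus undifferentiated, horizontal axis) of the 9 measured family genes and of the genes of 7 other lists (vertical axis), 1 point per gene at its main probe set, spread up and down so that points can be told apart. Filled, named points passed at an adjusted p under 0.1, and only Bcl2, Pim2, Tigar, Mdm4 and Klf4 are filled.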

How the data were processed

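RNA of sorted ES cells was hybridised to 6 Affymetrix mouse genome arrays, 3 per group. The authors processed the scans by RMA, and the deposited values are log2 signals, normalized between arrays, of 45101 probe sets; no version of RMA is stated in the labels or the methods. Control probe sets (64) were left out. GEO's platform annotation gave 34945 of the other 45037 a single gene symbol, 932 several and 9160 none, and no symbol changed on update. Array medians were 5.54 to 5.65, and the lower quartile was 4.26 on differentiating replicate 1 against 4.07 to 4.10 on the others. The number of arrays limits the precision.

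Groups were compared with limma 3.58.1 (lmFit and eBayes, R 4.3.3) with group as the only term, and Benjamini-Hochberg adjustment over all probe sets, at the false discovery threshold of the methods (0.1). The script was tested on simulated data. The family and the other lists were chosen with earlier results of these data known. All family members are named, and of each other list up to 4 genes that passed, or the 2 with the largest difference where none did. Likeness was Pearson's correlation with the Bcl2 probe set of smallest adjusted p. Alternatives were a replicate block, array weights, a trended robust variance, other scaling, a filter on dim probe sets, other thresholds, the mean over a gene's probe sets, and leaving out each array. No sequence is given for Pmaip1.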

Additional observations from a re-analysis of the deposited data

How the results depend on the processing

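Of 126 values of the 9 family genes under the alternatives, 114 kept their direction and their side of the adjusted p threshold of 0.1. Of the rest, 4 no longer passed, 3 newly passed and 5 changed sign. A replicate block, trended robust variance, a filter on dim probe sets or kept controls left each difference as in the main fit. Direction could not change in those, so the 114 are not a measure of stability. All 4 that no longer passed were of Bcl2, each with 1 array left out. The sign changes were of Bbc3, with median centring (-0.0020) and without undifferentiated replicate 2 (-0.06) or 3 (-0.11), and of Bcl2l1, with array weights (-0.019) and without undifferentiated replicate 3 (-0.10). With 1 array left out, the family probe sets passing as higher numbered 0 to 6 and as lower 0 to 0, the probe sets passing in all 0 to 1491, and Bbc3 lay between -0.11 and 0.29 and Bcl2l1 between -0.10 and 0.19. The fits with 0 to 3 probe sets passing had 4129, 4668 and 4245 at an unadjusted p under 0.05 in limma, without differentiating replicate 2, differentiating replicate 3 and undifferentiated replicate 3. With array weights (0.30 and 0.35 for replicate 1 of the differentiating and undifferentiated groups, 5.11 for differentiating replicate 2), 9 family probe sets passed as higher, 1 as lower and 7174 in all, among them Pmaip1 (0.51, adjusted p = 0.0799) and Bik (0.40, adjusted p = 0.0484). At an adjusted p under 0.05, 0 family probe sets and 105 in all passed, and with a difference of at least 1 required 424 in all. With the replicate block, 2 family probe sets and 653 in all passed, and 1422938_at was lost (adjusted p = 0.112). After a second quantile normalization or median centring, 1437122_at was lost (adjusted p = 0.113 and 0.109). Same-numbered arrays deviated from their group means with correlations of 0.205, -0.11 and 0.115, and the numbers were not taken to pair the samples. The cause of these changes was not tested. The table has no detection calls, so dim probe sets give only weak limits.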
